A study of Homo sapiens with 3 samples.

Results

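The transcripts described here come from 7 genes of the hnRNP A/B and D families: HNRNPA0, HNRNPA1, HNRNPA2B1, HNRNPA3, HNRNPAB, HNRNPD and HNRNPDL. They were taken from lists of RNA sites crosslinked to HA-tagged HNRNPA0, and a site was assigned to a gene when its deposited name carried that gene's Ensembl ID. These are 7 of 6583 gene IDs with a site in at least 1 list. All 3 samples were replicates of 1 group: HEK293T cells, an established embryonic kidney line of WT genotype, transfected per 15 cm plate with 750 ng of vector coding for HA-tagged HNRNPA0, and crosslinked the following day. Crosslinking was with ultraviolet light at 254 nm and 0.3 J/cm2, after which the tagged protein was pulled down on anti-HA beads, its RNA was shortened with RNase I and sequenced, a procedure called easyCLIP. The tagged protein was made from a vector on top of the cells' own HNRNPA0, the replicates were told apart by an adapter barcode and pooled after its ligation, and nothing in the labels says whether they were separate cultures. The spread between replicates may therefore be technical, and no control library was used here.

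Proteins of the hnRNP A/B type carry a pair of RNA recognition motifs followed by a glycine-rich tail, and they coat nascent transcripts in the nucleus. They act in the choice of splice sites, in RNA export and stability, and in the packaging of introns. Several hnRNP proteins are known to bind RNA of their own gene or of close relatives and to adjust its splicing, and the study's title names proteins that meet G-quadruplexes, stacked structures of guanine-rich RNA.

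A peak is a stretch of a gene that the submitters listed as crosslinked, and the highest p-value in the deposited lists was 0.0437. Each peak also has a whole number, taken here for its reads and called the read number, a meaning that no header states. Distinct peaks numbered 15661, 15486 and 17791 in replicates 1, 2 and 3, and the nuclear-encoded peaks had summed read numbers of 100038, 99141 and 114203. These sums stand in for depth, because reads outside peaks were not used here. All coordinates are on hg38, from 1, and the peaks of each gene lay on 1 strand. Neighbouring peaks can touch and hold the same reads, so sums of read numbers are descriptions and not counts of molecules.

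Of 6583 gene IDs with a peak in any list, 3275 had a peak in every list. All 7 genes were among them, with 78, 69 and 63 peaks in replicates 1, 2 and 3. Together they held 1.43%, 1.41% and 0.963% of the nuclear-encoded read numbers, a mean of 1.27% ± 0.264 (SD, n = 3). Replicate 3 was the lowest, with fewer peaks and a smaller share than the others. When peaks lying end to end were replaced by the highest among them, the mean was 1.09% ± 0.141 (SD, n = 3).

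HNRNPA0, HNRNPA1, HNRNPA2B1 and HNRNPA3 held more than HNRNPD, HNRNPDL and HNRNPAB in every replicate. HNRNPA0 held 0.308%, 0.361% and 0.298% of nuclear read numbers in replicates 1, 2 and 3. HNRNPA3 held 0.373%, 0.275% and 0.179%. HNRNPA2B1 held 0.282%, 0.349% and 0.159%. HNRNPA1, the best studied of the family as a splicing repressor, held 0.286%, 0.282% and 0.208%. Every HNRNPA0 value was above every HNRNPA1 value, and the ranges of the other pairs among these 4 genes overlap. These values sum touching peaks. With each run counted once, at its highest peak, the HNRNPA0 mean was 0.237% ± 0.0087 and that of HNRNPA1 0.227% ± 0.015. HNRNPA2B1 then had 0.237% ± 0.06 and HNRNPA3 0.223% ± 0.055 (SD, n = 3 for each), so HNRNPA0 held no clear lead. By mean summed share HNRNPA0, HNRNPA3, HNRNPA2B1 and HNRNPA1 ranked 14, 18, 20 and 22 among 6566 nuclear gene IDs. HNRNPD held 0.122%, 0.0988% and 0.0753%, below every value of the 4 and above every value of HNRNPDL, at 0.050%, 0.0333% and 0.0359%. HNRNPAB was far below the others, at 0.0120%, 0.00807% and 0.00876%. HNRNPD ranked 114, HNRNPDL 531 and HNRNPAB 2205.

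**Figure D1:**
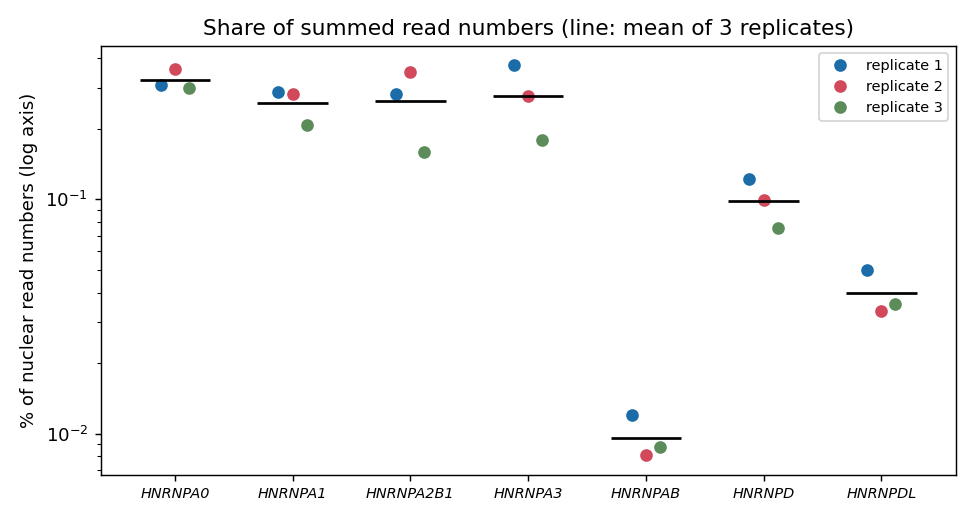
Share of the summed nuclear-encoded read numbers held by each gene (percent, log axis). Points are the 3 replicates and lines their means. HNRNPA0, HNRNPA1, HNRNPA2B1 and HNRNPA3 lie between 0.159% and 0.373%. HNRNPA0 lies wholly above HNRNPA1 in these sums, to which every touching peak is added. HNRNPAB lies lowest at 0.00961% ± 0.0021 (SD, n = 3).

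Read numbers per kb of gene interval again put HNRNPA0, HNRNPA1, HNRNPA2B1 and HNRNPA3 above HNRNPDL, HNRNPD and HNRNPAB. The order within these sets differed from that by share. The mean was 42.1 ± 4.2 per kb for HNRNPA1 and 38.5 ± 2.91 for HNRNPA0, whose replicate ranges overlap. HNRNPA3 followed with 25.4 ± 7.61 and HNRNPA2B1 with 25.0 ± 7.64, also overlapping each other but not HNRNPA0. HNRNPDL had 5.23 ± 1.08, HNRNPD 4.75 ± 0.853 and HNRNPAB 1.51 ± 0.302 (SD, n = 3 for each). HNRNPDL and HNRNPD overlap, and HNRNPAB lay below both in every replicate. Gene intervals include introns, so a value per kb is not a value per length of spliced RNA, and RNA levels were not used here.

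Peaks under the same gene ID that shared 1 bp or more between replicates were merged into regions. A region with a peak from every replicate is called recurrent. Of 98 merged regions in the 7 genes, 32 held a peak of every replicate, which is 32.7%. Over all gene IDs 6.26% of merged regions did. These shares were not matched for peak height, and the part of height in the difference was not tested. Of the 210 peaks of the 7 genes, 130 had a read number of 10 or more, against 5194 of 50353 in other nuclear gene IDs. In 6 of the 7 genes at least 1 region was found in all replicates, against 21.6% of all gene IDs and 43.4% of those with a peak in every list. The share depends on how many peaks a gene has: of gene IDs with 20 or more peaks over the 3 lists, 76.0% held such a region, and so did 5 of the 5 hnRNP genes in that class.

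**Figure D2:**
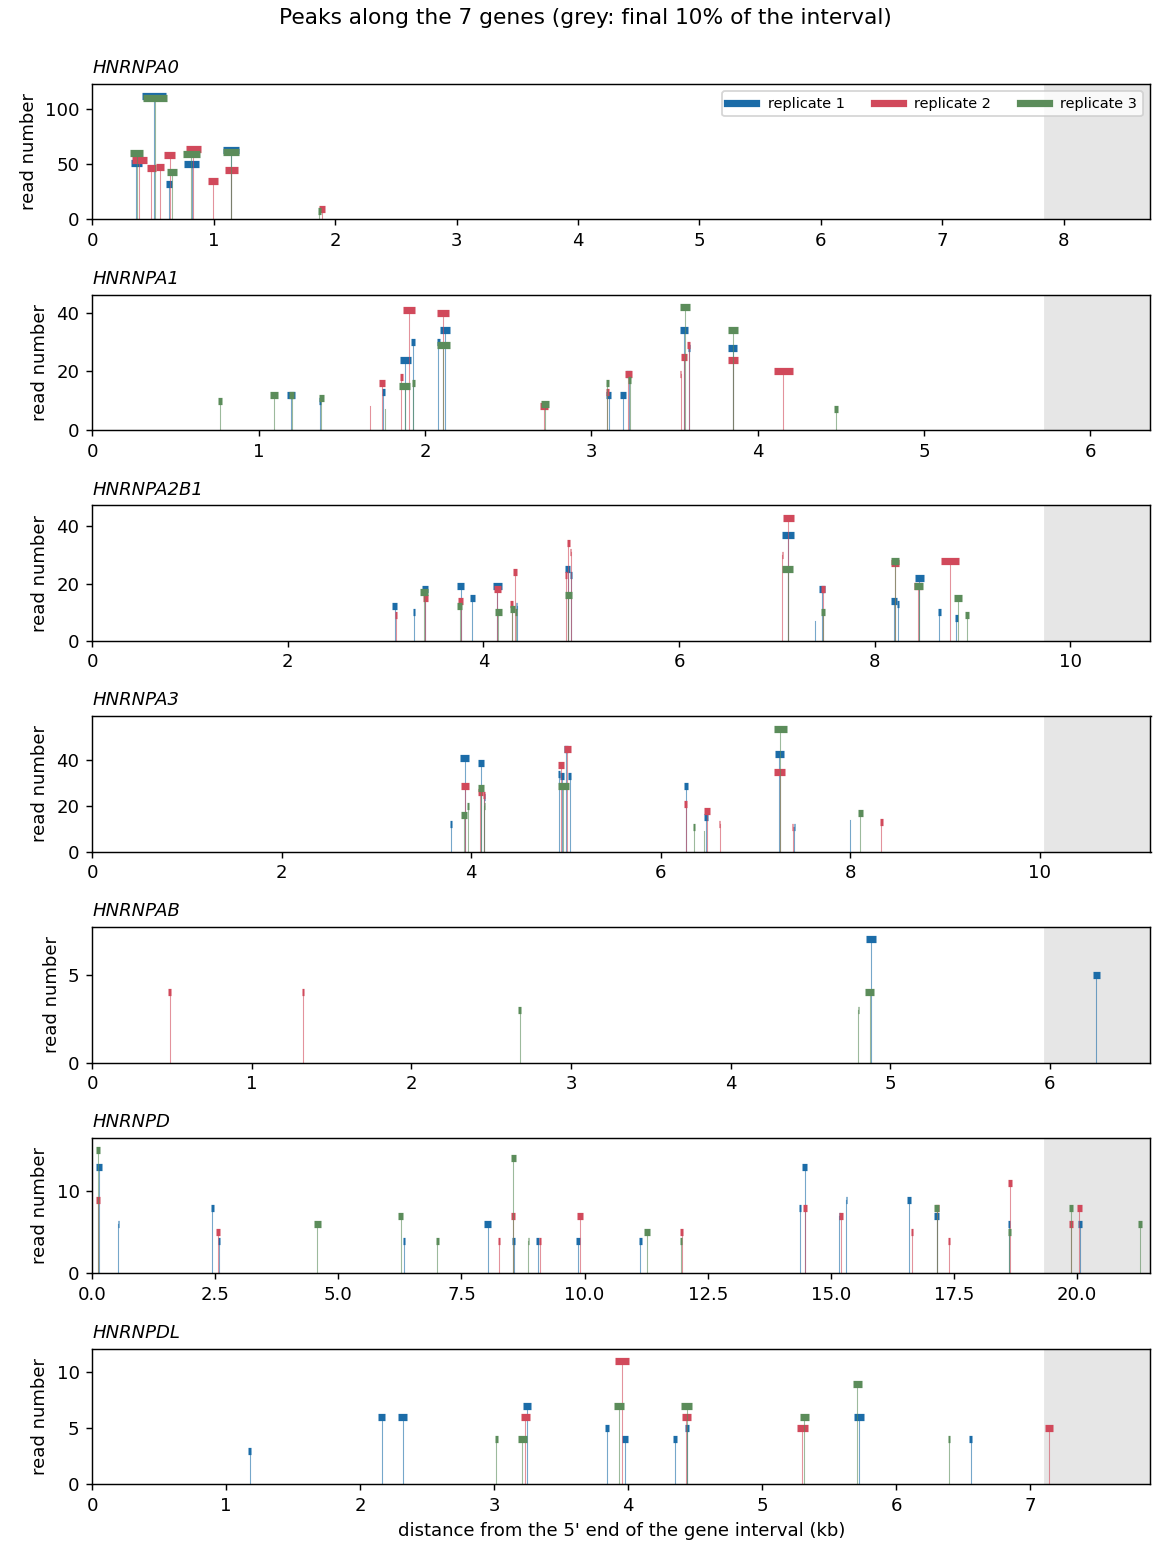
Peaks along each gene as distance from its 5' end in kb (horizontal axis) against the read number (vertical axis, own scale for each gene). Each bar spans 1 peak, colours are the 3 replicates, and grey marks the final 10% of the interval; HNRNPA0 peaks lie in the first 2 kb, HNRNPA1, HNRNPA2B1 and HNRNPA3 peaks in inner blocks, and HNRNPD peaks along its whole length.

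HNRNPA0, an intronless gene whose protein binds AU-rich RNA, had the highest peaks of the 7 genes. On chromosome 5 it occupies 137745651 to 137754363, minus strand, under the ID ENSG00000177733.6. The highest peak of each list had read numbers of 112, 64 and 110 in replicates 1, 2 and 3, and p-values of 6.28e-85, 1.32e-46 and 3.02e-82, as deposited. That of replicate 2, from 137753469 to 137753593, lay in another merged region than those of replicates 1 and 3. Of the 5 merged regions of HNRNPA0 3 were found in all replicates. The longest, of 385 nt from 137753669 to 137754053, held 3, 4 and 3 peaks with highest read numbers of 112, 58 and 110. In replicate 2 this stretch was split into more and lower peaks than in the other replicates. The next, from 137753469 to 137753617, had 50, 64 and 59, and the one farthest from the 5' end, from 137753155 to 137753289, had 63, 45 and 61. A peak between them, with a read number of 35, was listed in replicate 2 alone. Beyond these, a region from 137752451 to 137752503 had read numbers of 9 and 7 in replicates 2 and 3 and no peak in replicate 1. No list had a peak in the final 6800 nt. HNRNPA0 sequence is also on the vector, and RNA of the vector and of the chromosomal gene cannot be told apart in these lists.

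HNRNPA1 carried 7 regions found in all replicates, all between 27.4% and 60.6% of the way from its 5' to its 3' end. The gene lies on the plus strand of chromosome 12 from 54280726 to 54287087 and had 13, 13 and 14 peaks under ENSG00000135486.17. The highest region by mean, from 54284257 to 54284318, had highest read numbers of 34, 29 and 42. The region from 54282799 to 54282874 had 34, 40 and 29. The region from 54282573 to 54282665 had 30, 41 and 16, the widest spread in the gene, and the one from 54284548 to 54284609 had 28, 24 and 34. These 4 regions stood above the other 3 by mean. Of those, the region from 54283900 to 54283968 had 19, 19 and 17, and the region from 54283812 to 54283845 had 12, 13 and 16. The region from 54282448 to 54282487 was the lowest, with 13, 16 and 7. Outside these regions, peaks at 54281898 to 54281942 and 54282090 to 54282117 were listed in replicates 1 and 3 and that at 54283417 to 54283474 in replicates 2 and 3.

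A second gene ID, ENSG00000258344.1, covers the same stretch on the same strand, and its name is not given in the tables used here. It had 51 peaks inside the HNRNPA1 interval, and 34 of the 40 HNRNPA1 peaks are listed again under it with the same start and end. The reads of these peaks cannot be divided between the IDs, and without the repeated lines HNRNPA1 kept 0 of its 7 regions. The second ID was listed down to a read number of 3, and HNRNPA1 only down to 7. Under the second ID 10 regions were found in all replicates. The 3 that are not regions of HNRNPA1 lay nearer its 5' end: the one from 54281386 to 54281503 had 5, 9 and 10, the one from 54281795 to 54281870 had 6, 6 and 13, and the one from 54282090 to 54282118 had 10, 4 and 11.

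HNRNPA2B1, the gene of the A2 and B1 proteins, which are splice forms of 1 transcript, had the most recurrent regions, at 10. On chromosome 7 it occupies 26189927 to 26200746, minus strand, with 17, 15 and 12 peaks under ENSG00000122566.20. No list had a peak in its first 3070 nt or its final 1860 nt. The highest region, from 26193575 to 26193695, had highest read numbers of 37, 43 and 25. Next by mean came 26195846 to 26195910, with 25, 34 and 16, and 26192496 to 26192578, with 14, 27 and 28. The region from 26192247 to 26192339 was among the steadiest, with 22, 19 and 19. The other 6 had mean highest read numbers between 15.0 and 17.0. Among them the region nearest the 3' end, from 26191856 to 26192068, varied most, with 8, 28 and 15, and the region nearest the 5' end, from 26197313 to 26197397, varied least, with 18, 15 and 17. Replicate 3 had the lowest value in 6 of the 10 regions, and its share of nuclear read numbers in this gene was below that of the other replicates.

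HNRNPA3, whose protein is close to A1 and A2 and is known for binding RNA trafficking signals, had 5 recurrent regions that included the highest outside HNRNPA0. The gene lies on the plus strand of chromosome 2 from 177212794 to 177223959, with 13, 11 and 9 peaks under ENSG00000170144.18. The region from 177219985 to 177220120 had highest read numbers of 43, 35 and 54. The region from 177217704 to 177217846 had 45, 45 and 29 and was cut into 4, 2 and 1 touching peaks in replicates 1, 2 and 3. The regions from 177216860 to 177216940 and from 177216677 to 177216772 had 39, 26 and 28, and 41, 29 and 20. The fifth, from 177219247 to 177219308, was lower at 15, 18 and 9. A region from 177219037 to 177219084 had read numbers of 29 and 21 in replicates 1 and 2 and no peak in replicate 3, where a peak with a read number of 11 was listed at 177219131 to 177219152. No peak lay in the first 3780 nt or the final 2824 nt.

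HNRNPAB, whose protein is known as a partner of the APOBEC1 editing enzyme, was nearly bare. It lies on the plus strand of chromosome 5 from 178204533 to 178211163, and ENSG00000197451.10 had 2, 2 and 3 peaks with highest read numbers of 7, 4 and 4. None of its 6 merged regions was found in all replicates. The only overlap was between replicates 1 and 3, from 178209375 to 178209445, with read numbers of 7 and 4. Without replicate 2 this region is the recurrent one, so that 7 of the 7 genes then held one.

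HNRNPD encodes AUF1, which binds AU-rich elements and is known for its part in mRNA decay. Its peaks were about as many as those of HNRNPA2B1 but low and scattered. On chromosome 4 it occupies 82352498 to 82373991, minus strand, with 18, 15 and 12 peaks under ENSG00000138668.18. From the first to the last peak they span 98.9% of the gene, against 54.4% in HNRNPA2B1. Of 28 merged regions 15 came from 1 replicate, 9 from 2 and 4 from all 3. The highest of the 4 lay 70 nt from the 5' end, from 82373788 to 82373921, with read numbers of 13, 9 and 15. The region from 82365392 to 82365490 had 4, 7 and 14. Nearer the 3' end, the region from 82356796 to 82356890 had 7, 8 and 8, and the region from 82355302 to 82355400 had 6, 11 and 5. A region from 82359469 to 82359571, with 13 in replicate 1 and 8 in replicate 2, had no peak in replicate 3. Without replicate 3 the gene had 10 recurrent regions instead of 4.

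HNRNPDL, the gene of a D-like protein that also binds AU-rich RNA, lies 48572 bp from HNRNPD on the same strand, from 82422564 to 82430462. It had 10, 5 and 7 peaks under ENSG00000152795.17 and 3 recurrent regions in the middle of the gene. The region from 82426457 to 82426570 had highest read numbers of 4, 11 and 7, and the one from 82425983 to 82426067 had 5, 6 and 7. The one from 82427189 to 82427284 had 7, 6 and 4. The point of greatest height in the region from 82425983 to 82426067 was given at the same base, 82426024, in every list. With peaks of read number 5 or more only, 1 of the 3 regions was left.

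Height and recurrence went together within the 7 genes. All 24 peaks at read numbers from 40 upward lay in a region found in every replicate, as did 40 of the 44 with 20 to 39 and 43 of the 62 with 10 to 19. Of the 46 peaks with 6 to 9, 14 did, and of the 34 with 3 to 5, 5 did. The same bins were not counted over all gene IDs, so whether this rise is particular to these genes was not tested. In the 32 regions the highest and lowest replicate differed by a median of 1.69 times, and by under 2 times in 21. The lowest ratio, 1.12 times, was in HNRNPA1, and the highest, 3.50 times, in HNRNPA2B1 and in HNRNPD. Replicate 3 was the single lowest in 15 regions and the single highest in 8.

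**Figure D3:**
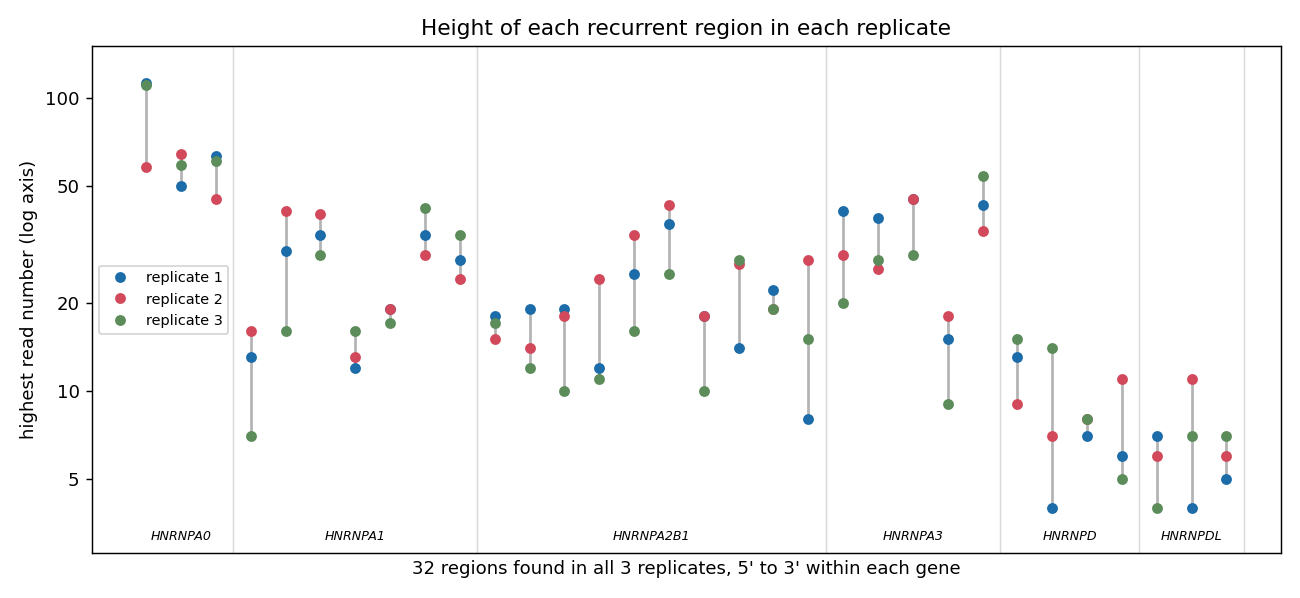
Highest read number (log axis) of each of the 32 regions found in all replicates, from 5' to 3' within each gene. Points are the 3 replicates and grey lines their range; every value of HNRNPA0 is 45 or more, and every value of HNRNPD and HNRNPDL is 15 or less.

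Recurrent regions of these genes lay mostly inside the gene and not at its 3' end. None of the 32 had its centre in the final 10% of the gene interval. Over all protein-coding genes of 5000 bp or more, 40.4% of regions found in all replicates did. For the 7 genes, 3 counts of the total are 9.38% and the upper end of the 95% Wilson interval is 10.7%, both covering counting error alone. Both take regions as independent, but the 32 lie in 6 genes, so neither is a test against the 40.4%. The median position was 44.8% of the way from the 5' end in the 7 genes, against 83.9% in the other genes. Between 20% and 80% of the interval lay 26 of the 32 regions, or 81.3%, against 37.7% in the other genes. HNRNPA0, which is also on the vector, had its median near the 5' end, at 9.41%. Without HNRNPA0, 1 region lay in the first of 10 equal bins of the interval and 0 in the last. HNRNPD had 1 region at 0.635% and 1 at 86.7%. In HNRNPA1, HNRNPA3 and HNRNPDL all regions lay between 27.4% and 65.0%.

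**Figure D4:**
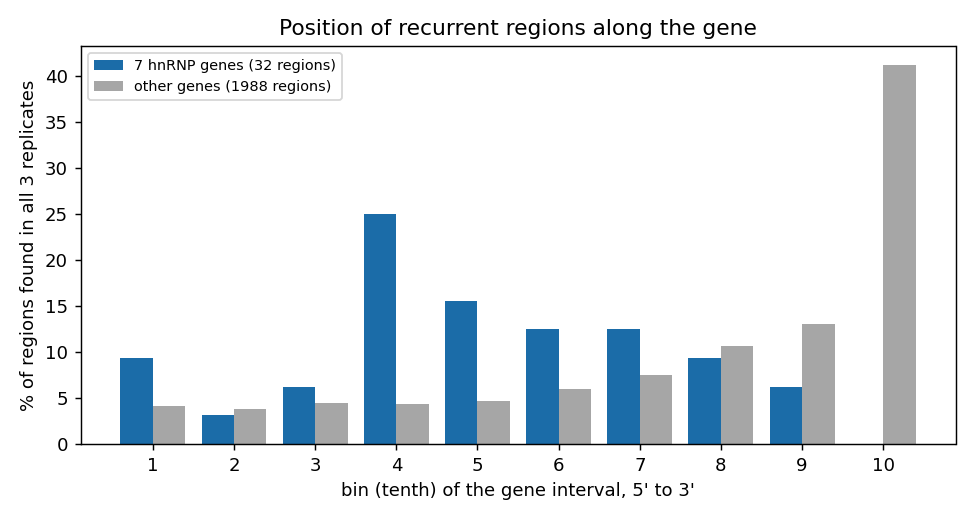
Regions found in all replicates in 10 equal bins of the gene interval, 5' to 3', as percent of regions in the 7 hnRNP genes (blue, 32 regions) and in other protein-coding genes of 5000 bp or more (grey, 1988 regions). The blue bars are tallest at 25.0% in bin 4 and are at 0 in bin 10, where the grey bar is at 41.2%.

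Single peaks gave the same picture for 4 of the genes. None of the 136 peaks of HNRNPA0, HNRNPA1, HNRNPA2B1 and HNRNPA3 lay in the final 10%. In HNRNPAB, HNRNPD and HNRNPDL 7 of the 74 peaks did, with read numbers of 5 to 8. The share of single peaks there over all gene IDs was not computed, so these counts have no like comparison. Of the 7 peaks in the final 10%, 5 were in HNRNPD. In that gene regions at 82354071 to 82354154 and 82353881 to 82353999 came from 2 replicates each. The lists do not reach equally low in each gene: the lowest read number was 7 in HNRNPA0, HNRNPA1 and HNRNPA2B1 and 9 in HNRNPA3, but 4 in HNRNPD and 3 in HNRNPAB and HNRNPDL. Under the second ID at HNRNPA1, 3 peaks did lie in the final 10% of that gene, with read numbers of 3, 6 and 5 in replicates 1, 2 and 3. Among other gene IDs whose lowest read number was 7 or more, 31.6% of 158 regions lay in the final 10%, and among those with 3 or 4 it was 42.3% of 1696. Genes with several recurrent regions often have none there: of 197 other gene IDs with 3 or more regions, 68 had none in the final 10%, against 6 of 6 among the hnRNP genes. Exons, introns and untranslated parts were not told apart here, so their part in these positions was not tested.

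Many regions of HNRNPA1, HNRNPA2B1 and HNRNPA3 began or ended at the same or the adjoining base in every replicate. An outer edge that agreed within 1 nt over the 3 lists was found in 12 of the 32 regions, or 37.5%, against 11.1% of all nuclear regions found in all replicates. By gene it was 5 of 7 in HNRNPA1, 4 of 10 in HNRNPA2B1, 3 of 5 in HNRNPA3, and 0 of 10 in HNRNPA0, HNRNPD and HNRNPDL together. In HNRNPA3 the region from 177216860 to 177216940 had both ends at identical bases in all lists, and that from 177217704 to 177217846 had the same first base. In HNRNPA1 the region from 54282573 to 54282665 ended at the same base in every list, and in HNRNPA2B1 the regions from 26196401 to 26196478 and from 26192496 to 26192578 did so at their 3' edge. Edges within 1 nt were the 5' edge in 7 cases and the 3' edge in 8. With regions limited to those of read number 10 or more in every replicate, 12 of 22 hnRNP regions had such an edge, or 54.5%, against 14.7% of 673 others. Of all peaks of the 7 genes 23.8% touched a neighbour, against 2.46% of those of other nuclear gene IDs. At read numbers from 10 upward these shares were 38.5% and 14.3%. By gene, 13 of 40 peaks in HNRNPA1, 13 of 44 in HNRNPA2B1 and 14 of 33 in HNRNPA3 touched a neighbour, and none did in HNRNPAB, HNRNPD or HNRNPDL. In HNRNPA0 10 of 19 peaks touched, with no shared edge.

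**Figure D5:**
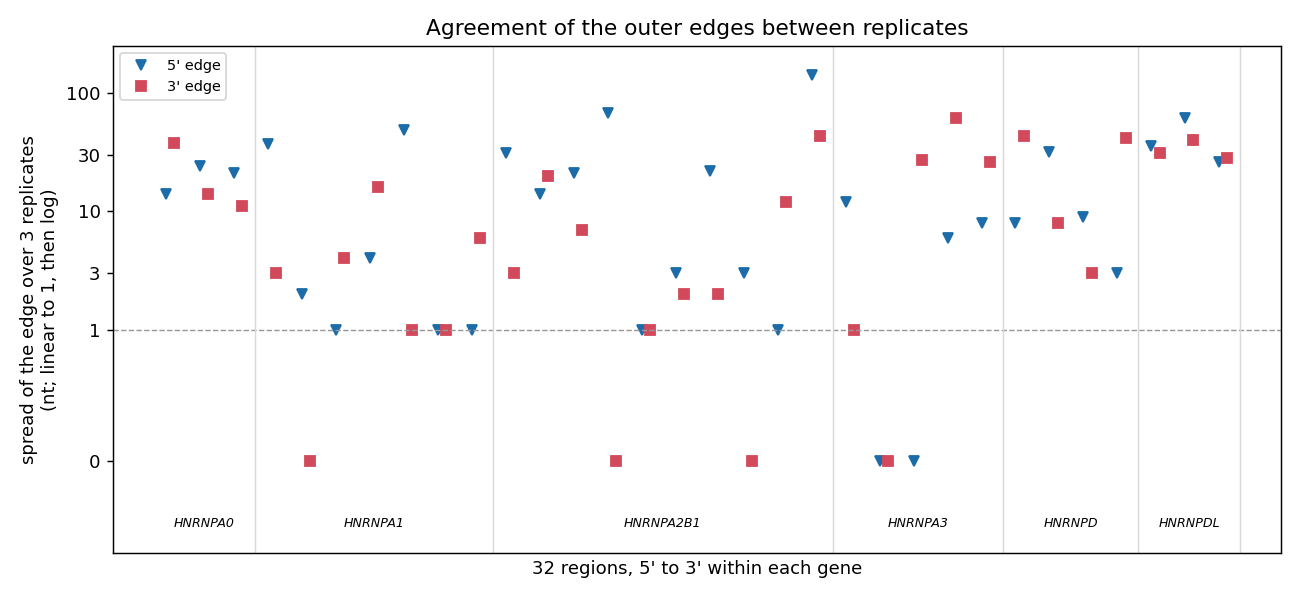
Spread of the outer 5' edge (triangles) and 3' edge (squares) of each recurrent region over the 3 replicates, in nt, on an axis that is linear to 1 and logarithmic above. Points on or under the dashed line agree within 1 nt; they occur in 12 regions, all in HNRNPA1, HNRNPA2B1 and HNRNPA3.

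The point of greatest height of each region was also compared between replicates. Its position differed by a median of 18.5 nt over the 32 regions, against 23.0 nt in 2424 other nuclear regions, which were wider, with a median of 116 nt against 91.5 nt. HNRNPA1 had the smallest median, 10.0 nt, and HNRNPA0 the largest, 55.0 nt, with 163 nt in its longest region.

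Among 17 other hnRNP genes, 14 had a peak. A region found in all replicates was held by 11 of these 14, against 6 of 7 here, where every gene had a peak. Over all gene IDs with a peak the share was 21.6%. Counted over all 17 genes, those without a peak included, it was 64.7%, which is not on the same base. HNRNPH1, a G-tract binding splicing factor, had 9 such regions, HNRNPC, which binds uridine tracts, 8, and HNRNPU, a chromatin scaffold protein, 6. HNRNPF, HNRNPUL1 and HNRNPUL2 had peaks but no such region, and HNRNPCL1, HNRNPLL and RALY had no peak. Shares of nuclear read numbers reached 0.216% ± 0.0734 in HNRNPC, 0.210% ± 0.0339 in HNRNPH1 and 0.198% ± 0.0354 in HNRNPU (SD, n = 3 for each). The means of HNRNPA0, HNRNPA1, HNRNPA2B1 and HNRNPA3 were higher, at 0.322% ± 0.034, 0.259% ± 0.0443, 0.263% ± 0.0962 and 0.276% ± 0.0971. In these sums, which add touching peaks, only HNRNPA0 differed from HNRNPC by more than the larger of their SDs. With each run counted once HNRNPA0 had 0.237% ± 0.0087 (SD, n = 3), and HNRNPC was not counted in this way. HNRNPA0 sequence is also on the vector. Positions were given for 9 of the 17 genes, whose IDs were each tied to a single protein-coding gene of 5000 bp or more. HNRNPH1, with 9 recurrent regions, and HNRNPH2, with 1, were not among them. Of the 37 regions of the 9 genes, 10 lay in the final 10%, or 27.0%, with 5 of these in HNRNPC. HNRNPH3, HNRNPM, HNRNPR and SYNCRIP had none there. Of 4 further genes with related RNA recognition motifs, MSI2 and TARDBP held 2 regions each, DAZAP1 had 3 peaks without one, and MSI1 had no peak.

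The 7 genes have many copies elsewhere in the genome, and reads of near-identical sequence could be placed at either. The gene table lists 102 pseudogenes and retrocopies named after them, 77 of these after HNRNPA1. Only 3 held a peak, HNRNPA1L2, HNRNPA1L3 and HNRNPA3P10, with 4 peaks of read number 3 to 5 in all. How reads with several matches were treated is not given in the sources used here, so the counts of HNRNPA1 and HNRNPA3 are uncertain to that extent.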

How the data were processed

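The deposited files are BED lists of peaks, 1 for each replicate. Per the submitters' processing notes the build was hg38 and the tools included bedtools and deepTools. Adapters carried molecular identifiers, per the labels' protocols; how they were used, the aligner and the peak caller are not given in the sources used here. A deposited line holds a p-value per peak, with no adjustment stated, and a name ending in a whole number read as reads. Such other deposited values as positions were used as given.

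Gene intervals came from RefSeq (GRCh38.p14, hg38); the 7 Ensembl IDs were checked by position, and all their peak centres lay inside. Strand came from the peaks and matched the promoter table for the 6 genes it lists. A gene ID was tied to a gene containing at least 90% of its peak centres. Shares use distinct nuclear peaks. Named genes are the 7 genes, 17 other hnRNP genes, 4 related genes and the copies by symbol. Members and lists were chosen with earlier results of these data known, and the edge tolerance of 1 nt, the bins of read number and the subsets by peak number, region number and lowest read number after seeing these values. No test was run: there is 1 group without a control. Alternatives covered overlap, replicates, p-value, read number, touching peaks and repeated lines. Region merging was tested on simulated data. No peak sequences are shown, since no genome was used. Scripts ran in Python 3.11.15 with pandas 2.3.3.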

Additional observations from a re-analysis of the deposited data

Results flagged for a closer look

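At HNRNPA1, 5 peaks of the second gene ID, ENSG00000258344.1, overlap no peak listed for HNRNPA1 itself, which is a signal in lines outside the main count. They have read numbers of 3 to 6: 2 lie at the 5' end of the gene, from 54280777 and 54280778 to 54280823 in replicates 2 and 1 with 4 each, and 3 in its final 10%. The copy HNRNPA1L3 had a highest read number of 5 in replicate 2 and 4 in replicate 1, at overlapping positions of chromosome 16 from 51646464 to 51646552, and no peak in replicate 3. With 1 group of 3 replicates and no control library, neither samples that stand apart nor differences between groups were tested.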

How the results depend on the processing

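No paired analysis was possible because all samples form 1 group. The number of genes with a recurrent region (6 of 7) was 6 or 7 under the settings for overlap, replicates, p-value, read number and touching peaks. With lines repeated under the second gene ID left out, an alternative chosen after seeing the data, it was 5, with 25 recurrent regions, none in the final 10%, and a share of 1.03%. The 32 recurrent regions became 50 when 2 or more replicates sufficed, and ranged from 28 to 40 under the others of these settings, with 36 to 40 when 1 replicate was left out. The share of nuclear read numbers moved from 1.27% to 1.64% with the 50% of peaks lowest in p kept per list and to 1.83% with read numbers of 5 or more (the cause was not tested); without 1 replicate it ranged from 1.19% to 1.42%. The share of regions in the final 10% was 0% to 4.00%, and 0% to 2.78% without 1 replicate. Of 63 counts for single genes under alternatives, 54 stayed within 1.5 times. HNRNPDL fell to 1 region with 50% of both peaks overlapping, with the 50% lowest in p and at read numbers of 5 or more, and HNRNPD had 13 with 2 or more replicates. The planned HNRNPA0 stretch of coding length was not run, since no protein table was used. Read numbers under about 10 limit what recurrence can show, mainly in HNRNPAB, HNRNPD and HNRNPDL.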
